A study of Mus musculus with 6 samples.

Results

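The insulin-like growth factor (IGF) genes examined in mouse dental pulp were 2 ligands (Igf1 and Igf2), 2 receptors (Igf1r and Igf2r) and 6 binding proteins (Igfbp2 to Igfbp7). They were taken by gene symbol, whatever their values, and the 10 genes stood among 53342 in the table. All 10 were among the 24534 genes with enough counts to be tested. Messenger RNA was sequenced from the pulp of C57BL/6 mice at 3 months of age, with 3 independent biological samples of WT and 3 of Mmp13-/-. Mmp13-/- mice were homozygous for the loss of MMP13, a collagen-cleaving metalloproteinase, in every tissue, and the methods describe the colony animals as male. Samples are named here by their labels, as WT 2, 4 and 5 and as Mmp13-/- 1, 2 and 6. The source is given as incisors with TRIzol extraction in the methods and as molars with a column kit in the sample labels. Among the sample titles, those of WT name molars and those of Mmp13-/- name no tooth. Whether the tooth differed between the genotypes cannot be told from the titles.

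IGF1 and IGF2 are small secreted proteins related to insulin. Both activate IGF1R, a receptor tyrosine kinase that drives growth and survival through the PI3K-Akt and MAPK pathways, whereas IGF2R carries no kinase and takes IGF2 into the cell for breakdown in lysosomes. IGF binding proteins hold the ligands in blood and tissue and release them when proteases cut the binding proteins, and in teeth and bone the ligands are known to act on matrix-forming cells.

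Igf1 was higher in Mmp13-/- pulp, by 3.92-fold, and was the only one of the 10 genes that rose. Igf2, Igf1r and 5 of 6 binding proteins were lower, by 1.48-fold (Igfbp3) to 2.35-fold (Igfbp7), and Igf2r and Igfbp2 did not pass the test. Of all genes tested 27.3% were called higher and 24.3% lower at an adjusted p under 0.05 in edgeR's quasi-likelihood test, 51.6% in all, so a call in this comparison is common. Among the 10 genes 1 was called higher and 7 lower. Of the changes called, 1 rise and 4 falls were over 2-fold (Igf1; Igf2, Igfbp4, Igfbp5 and Igfbp7), against 20.4% and 9.68% of all genes tested (30.1% in either direction). The median log2 fold change was -0.85 over the 10 genes and 0.10 over all genes tested. Fold changes followed the GC content of the transcripts, and after a correction for it only Igf1, Igf1r and Igfbp5 were still called. The medians were then -0.04 over the 10 genes and 0.33 over all genes tested.

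The libraries held 21561420 to 29980236 estimated counts, the lowest in Mmp13-/- sample 6. This library stood apart, with a scaling factor (TMM, a trimmed mean of M-values) of 0.808 against 0.964 to 1.2 in the others. Its background, read from 1451 genes of odorant and vomeronasal receptors in CPM (the usual count unit scaled to library size, here with TMM factors) per kb, was 0.278, against 0.0478 and 0.0587 in the other Mmp13-/- samples and 0.00339 to 0.00401 in WT. Mmp13 itself was at 30.2 to 39.2 CPM in WT and 0.323 to 2.34 CPM in Mmp13-/- samples, 31.1-fold lower (edgeR adjusted p = 7.67e-05). Without sample 6, all 8 called IGF genes were called again in the same direction, beside 27.5% of genes higher and 23.8% lower (51.2% in all). No test here can tell fewer cells of a type from less RNA per cell, since the libraries are of whole tissue.

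**Figure D1:**
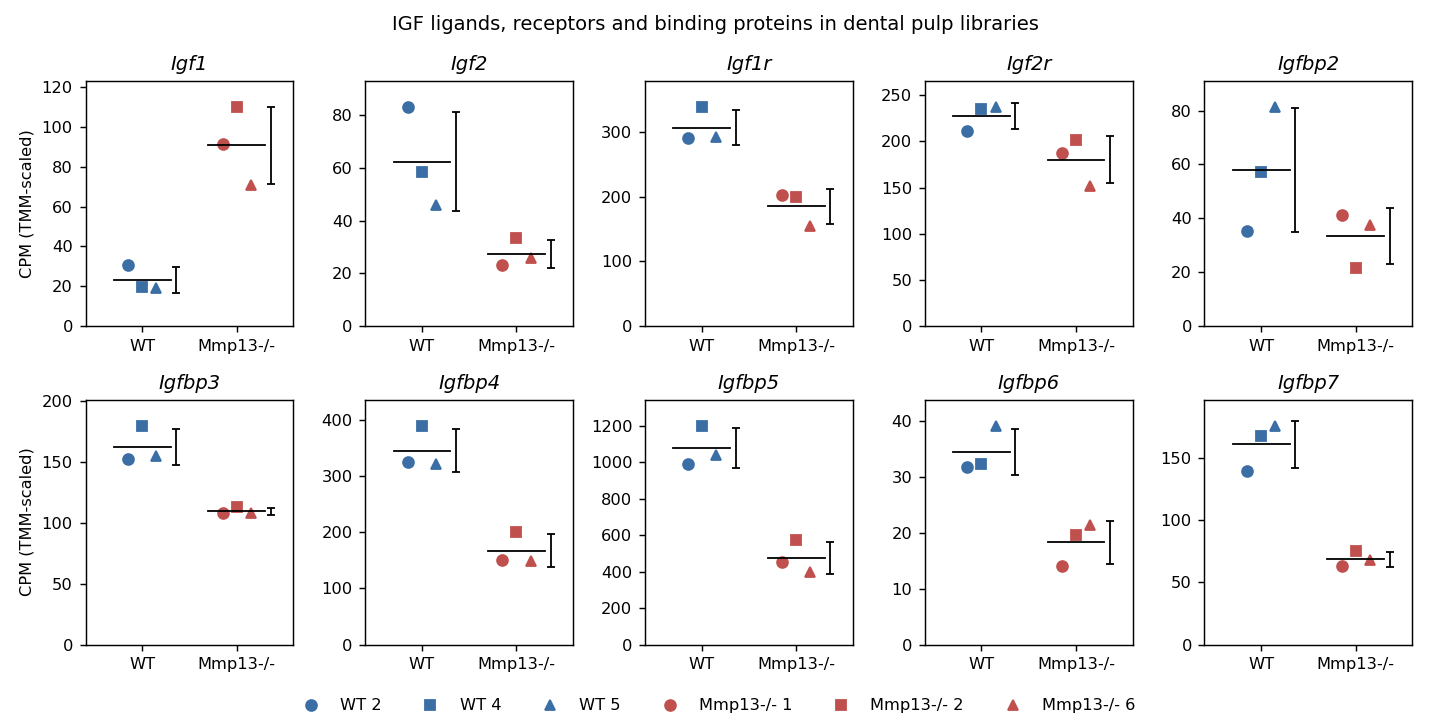
Each panel plots one gene in TMM-scaled CPM for the 3 WT (blue) and 3 Mmp13-/- (red) samples, with a horizontal line at the mean and a bar of 1 SD to either side of it. Igf1 is higher in every Mmp13-/- sample than in any WT sample, 8 genes are lower in every Mmp13-/- sample, and Igfbp2 overlaps between genotypes.

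Igf1 (chr10:87858265-87937042, plus strand, GRCm38) encodes the main ligand of IGF1R after birth, made by the liver for the circulation and by many tissues for local use. It was at 30.5, 19.5 and 19.3 CPM in WT samples 2, 4 and 5 and at 91.5, 110 and 71.0 CPM in Mmp13-/- samples 1, 2 and 6. The lowest Mmp13-/- sample lay well above the highest WT sample. The log2 fold change was 1.97 (SE 0.23, edgeR adjusted p = 0.000164), and the change was 2.12 without sample 6. The antisense transcript Igf1os at the same locus shares no exon bases with Igf1 in the annotation and had at most 35.9 counts in any library. Its own log2 fold change of 1.48 did not pass the test (edgeR adjusted p = 0.0802).

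Igf2 (chr7:142650766-142666816, minus strand) encodes the fetal ligand and is expressed from the paternal copy. WT samples held 83.1, 58.5 and 45.9 CPM and Mmp13-/- samples 23.2, 33.4 and 25.9 CPM. Levels were lower in each Mmp13-/- sample than in any WT sample, although WT samples spread widely, with sample 2 far above sample 5. Igf2 fell by 1.18 on the log2 scale (SE 0.23, edgeR adjusted p = 0.00198). Of its exon bases 62.8% also belong to Gm49394, an annotated readthrough gene on the same strand, so counts of both are uncertain. With counts of both genes added, an alternative chosen after seeing the data, the log2 fold change was -1.21. The opposite-strand transcript Igf2os shares 98 exon bases with Igf2 and had 27.5 to 82.8 counts.

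The relation of the ligands differed between the genotypes. Taken per kb of exon, Igf1 stood at 0.212, 0.193 and 0.243 times the level of Igf2 in WT samples and at 2.28, 1.90 and 1.58 times that level in Mmp13-/- samples. Uncorrected, Igf2 was the more abundant ligand transcript in every WT library and Igf1 in every Mmp13-/- library. The difference was 3.14 on the log2 scale, or 8.83-fold (two-sided exact permutation test p = 0.1, the smallest that 3 against 3 samples can give). With levels corrected for GC content it was 1.27 on the log2 scale, with -1.53, -1.20 and -1.10 in WT and 0.25, -0.08 and -0.20 in Mmp13-/-, so Igf2 stood above Igf1 in 2 of the 3 Mmp13-/- libraries. With the counts of Gm49394 added to Igf2, Igf1 stood at 0.113, 0.102 and 0.13 times the joint level in WT and 1.24, 1.04 and 0.848 times in Mmp13-/-, and fell short of it in sample 6.

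Igf1r (chr7:67952827-68233668, plus strand) encodes the signalling receptor. Its level was 290, 338 and 292 CPM in WT and 202, 199 and 154 CPM in Mmp13-/-. No Mmp13-/- sample reached the WT samples, and sample 6 was the lowest. It fell by 0.73 on the log2 scale (SE 0.18, edgeR adjusted p = 0.00638), and by 0.61 without sample 6. With total counts in place of TMM factors the call was lost at a log2 fold change of -0.59 (adjusted p = 0.204), as it was at -0.80 with limma on the deposited log2 values (adjusted p = 0.0541), where 17% of genes were called higher and 7.79% lower (24.8% in all). Igf2r (chr17:12682406-12769664, minus strand), the maternally expressed clearance receptor for IGF2, was at 211, 235 and 237 CPM in WT and 187, 202 and 152 CPM in Mmp13-/-. All Mmp13-/- values were below the lowest WT value, but the log2 fold change of -0.33 (95% interval -0.71 to 0.04) did not pass the test (edgeR adjusted p = 0.121). Igf2r did pass with DESeq2 (adjusted p = 0.0483), with the study's procedure as run here (q = 0.0317) and with factors taken without the 10 most abundant genes (adjusted p = 0.0339). After the GC correction its direction turned, to 0.17 (adjusted p = 0.185). Airn, the antisense transcript of the imprinted Igf2r locus, shares no exon bases with Igf2r and had a log2 fold change of -0.37 (edgeR adjusted p = 0.111).

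Set against each other per kb of exon, Igf1r stood at 0.759, 0.799 and 0.683 times Igf2r in WT and at 0.597, 0.545 and 0.560 times in Mmp13-/-. Every Mmp13-/- ratio was below every WT ratio, a difference of -0.40 on the log2 scale (exact permutation p = 0.1) and of -0.56 with GC-corrected levels. The ratio of Igf1 to its receptor Igf1r was 0.179, 0.0978 and 0.112 in WT and 0.770, 0.934 and 0.783 in Mmp13-/-. Both genes contributed, since Igf1 was higher and Igf1r lower, and the ratio differed by 6.6-fold (exact permutation p = 0.1), or by 1.39 on the log2 scale with GC-corrected levels.

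Igf1r and Igfbp5 were the 2 genes called lower both with and without the GC correction, and the sequence before their start sites is shown for that reason. Both come from the RefSeq promoter windows on GRCm38.p6, which matched all 10 genes and gave 14 windows, and bases that lie in exons of the GENCODE annotation were left off. Capitals mark GGGCGG, the GC box bound by Sp1-type factors, searched on both strands together with TATAAA and CCAAT. The window of Igf1, the gene that rose, lies wholly inside an annotated first exon and is not shown. The Igf1r stretch is chr7:67952007-67952256 on the plus strand and the Igfbp5 stretch chr1:72874885-72875115 on the minus strand, both written 5′ to 3′. The Igf1r stretch ends well upstream of the GENCODE gene start at 67952827 and does not border it. By contrast, the Igfbp5 stretch borders its GENCODE gene.
Igf1r: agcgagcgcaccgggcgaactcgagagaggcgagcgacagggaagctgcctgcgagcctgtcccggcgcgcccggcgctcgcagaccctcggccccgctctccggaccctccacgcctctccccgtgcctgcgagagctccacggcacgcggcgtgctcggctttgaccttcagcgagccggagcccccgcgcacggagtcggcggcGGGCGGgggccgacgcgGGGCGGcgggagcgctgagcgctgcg
Igfbp5: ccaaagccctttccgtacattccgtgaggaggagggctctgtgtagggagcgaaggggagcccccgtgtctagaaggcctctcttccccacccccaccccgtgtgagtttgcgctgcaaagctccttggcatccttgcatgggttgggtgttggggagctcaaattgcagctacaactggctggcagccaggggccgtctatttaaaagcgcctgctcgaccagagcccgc

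GC content was 77.6% for Igf1r and 60.6% for Igfbp5, against a median of 52.4% over all 32851 windows of 250 bases. The Igf1r stretch held 2 copies of GGGCGG, a motif found on either strand in 32.7% of all windows. Neither stretch held TATAAA (12.4% of windows) or CCAAT (33.8%), and the Igfbp5 stretch held none of the 3 motifs.

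Igfbp5 (chr1:72857932-72874884, minus strand), which binds to extracellular matrix and bone mineral as well as to IGFs, was the most abundant IGF transcript in every library. It was at 992, 1201 and 1043 CPM in WT samples and 455, 574 and 397 CPM in Mmp13-/- samples. The highest Mmp13-/- sample was far below the lowest WT sample. Igfbp5 fell by 1.18 on the log2 scale (SE 0.21, edgeR adjusted p = 0.00148). After the GC correction it still fell by 0.76 (adjusted p = 0.00462), the largest fall left among the 10 genes.

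Igfbp7 (chr5:77349240-77408041, minus strand) binds IGFs weakly and is known as a product of endothelial cells. It was at 140, 168 and 176 CPM in WT and 62.9, 74.9 and 68.2 CPM in Mmp13-/-. The values within each genotype lay close together and the genotypes were far apart. Igfbp7 fell by 1.23 on the log2 scale (SE 0.16, edgeR adjusted p = 0.000247), but by 0.12 after the GC correction (adjusted p = 0.477). It shares 7.0% of its exon bases with Polr2b on the opposite strand.

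Igfbp4 (chr11:99041244-99054392, plus strand), the substrate of the protease PAPP-A, was at 325, 390 and 322 CPM in WT and 151, 201 and 149 CPM in Mmp13-/-. Again no Mmp13-/- sample came near the WT range. It fell by 1.05 on the log2 scale (SE 0.19, edgeR adjusted p = 0.00135), and by 0.22 after the GC correction (adjusted p = 0.225). Igfbp3 (chr11:7206086-7213923, minus strand), the main carrier of IGF1 in blood, was at 153, 180 and 155 CPM in WT, against 108, 113 and 108 CPM in Mmp13-/-. The Mmp13-/- values were nearly equal to each other and all below WT. Igfbp3 fell by 0.57 on the log2 scale (SE 0.15, edgeR adjusted p = 0.00874), whereas the GC-corrected log2 fold change was 0.05 (adjusted p = 0.772). Its call was also lost with total counts (adjusted p = 0.311) and with limma (adjusted p = 0.0681), although the log2 fold changes there were -0.46 and -0.63.

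Igfbp6 (chr15:102144362-102149511, plus strand), which prefers IGF2 over IGF1, was at 31.9, 32.3 and 39.2 CPM in WT and 14, 19.6 and 21.4 CPM in Mmp13-/-. The genotypes did not overlap. It fell by 0.91 on the log2 scale (SE 0.18, edgeR adjusted p = 0.00238), and the direction turned to a log2 fold change of 0.30 after the GC correction (adjusted p = 0.287). Igfbp2 (chr1:72824503-72852474, plus strand), which lies next to Igfbp5 on the chromosome, was at 35.1, 57.1 and 81.2 CPM in WT and 41.2, 21.5 and 37.6 CPM in Mmp13-/-. It was the only gene of the 10 whose genotypes overlapped, because WT sample 2 lay below Mmp13-/- samples 1 and 6. The log2 fold change was -0.79 (95% interval -1.48 to -0.10, edgeR adjusted p = 0.0544). Without WT sample 2 it was -1.13 (adjusted p = 0.00846) and without Mmp13-/- sample 1 it was -1.04 (adjusted p = 0.0199), and after the GC correction it was 0.45 (adjusted p = 0.296).

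Counted by overlap of samples, 1 of the 10 genes was higher in every Mmp13-/- sample and 8 were lower. Over all genes tested, the same held for 31.8% and 29.1%. The 7 genes called lower were 1 of 2 ligands, 1 of 2 receptors and 5 of 6 binding proteins.

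**Figure D2:**
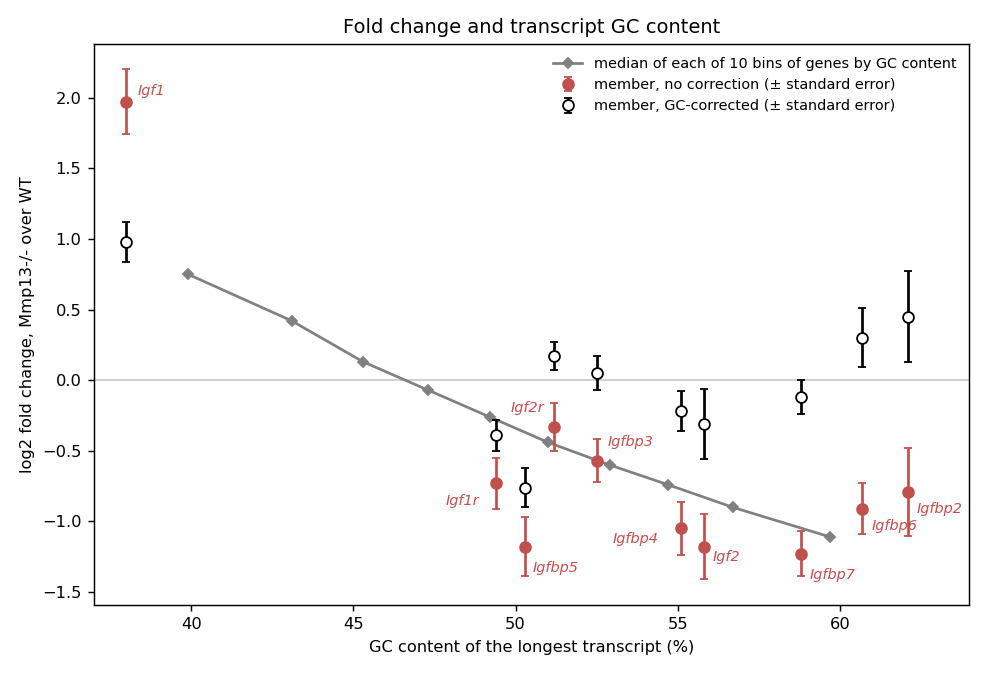
The log2 fold change of Mmp13-/- over WT is plotted against the GC content of each gene's longest transcript (%), for the 10 IGF genes without correction (red) and with GC correction (open), with standard errors, and for the medians of 10 equal bins of genes by GC content (grey line). The grey line runs from 0.75 at the lowest GC content to -1.11 at the highest, and of the uncorrected values Igf1, at 1.97, lies farthest above it and Igfbp5, at -1.18, farthest below it.

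The GC content of the transcripts spanned 38.0% in Igf1 to 62.1% in Igfbp2, and the fold changes of all genes moved with it. Over genes with a mean log2 CPM above 3, the median log2 fold change was 0.75 in the lowest of 10 equal bins by GC content, which holds Igf1, and -1.11 in the highest, which holds Igfbp2, Igfbp6 and Igfbp7. In the former 66.2% of genes were called higher, and in the latter 88% were called lower. Igf1r had a log2 fold change of -0.73 in a bin with a median of -0.26, and Igfbp5 one of -1.18 in a bin with a median of -0.44. Igf2r, at -0.33, and Igfbp3, at -0.57, were near the medians of their bins, -0.44 and -0.60.

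With GC content entered as an offset fitted in each sample, Igf1 rose by 0.98 on the log2 scale (adjusted p = 0.00179) and Igf1r fell by 0.39 (adjusted p = 0.0212). Corrected levels of Igf1 were 38.8, 30.9 and 26.7 CPM in WT and 60.2, 69.8 and 60.9 CPM in Mmp13-/-, still without overlap. Igfbp5 was at 870, 1029 and 886 CPM in WT against 486, 615 and 543 CPM after the same correction, and Igf1r at 259, 300 and 256 CPM against 209, 207 and 206 CPM. Those 3 genes made 1 call higher and 2 lower, against 26.7% and 9.5% of all genes tested under the correction (36.2% in all), and the largest, Igf1 at 0.98, was just short of 2-fold. Igf2 was left with a log2 fold change of -0.31 (adjusted p = 0.352), and its genotypes overlapped. Whether the relation to GC content arose in the tissue or in the libraries was not tested.

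**Figure D3:**
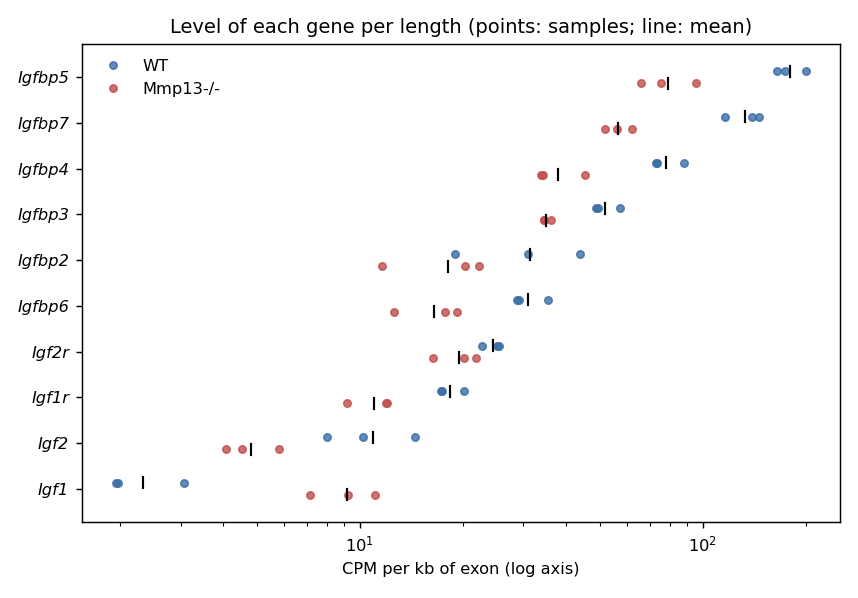
The level of each IGF gene is shown in CPM per kb of exon on a log axis, with a point for each WT (blue) and Mmp13-/- (red) sample and a line at the mean. By their means the binding proteins lie above the receptors and ligands in WT, Igfbp5 leads in both genotypes, and Igf1 leaves the last place in Mmp13-/- samples.

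Levels of different genes were compared in CPM per kb of exon. In WT pulp Igfbp5 led with 180 ± 18.2 (SD, n = 3), followed by Igfbp7 with 133 ± 15.7, Igfbp4 with 78.3 ± 8.70 and Igfbp3 with 51.9 ± 4.87. Igfbp2 at 31.3 ± 12.5 and Igfbp6 at 31.0 ± 3.69 overlapped. The receptors came next, Igf2r at 24.5 ± 1.53 and Igf1r at 18.3 ± 1.62, and the ligands last, Igf2 at 10.9 ± 3.31 and Igf1 at 2.33 ± 0.648. All other neighbours in that order were separated by sample, although Igfbp2 spread from 19 to 44 and so spanned Igf2r.

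In Mmp13-/- pulp Igfbp5 at 79.2 ± 15.1 and Igfbp7 at 56.8 ± 4.96 kept the first and second places. Igfbp4 at 37.8 ± 6.66 and Igfbp3 at 35.0 ± 0.904 overlapped, as did the run of Igf2r at 19.4 ± 2.76, Igfbp2 at 18.1 ± 5.69 and Igfbp6 at 16.5 ± 3.46. Igf1 at 9.16 ± 1.95 overlapped with Igf1r at 11 ± 1.6, and Igf2 was last at 4.8 ± 0.919. Per kb of exon, clearance receptor transcripts were thus above signalling receptor transcripts in both genotypes. That order depends on the length used, since Igf1r has 16791 exon bases but 11409 in its longest transcript. For Igf2r these are 9308 and 8887. With the longest transcript as length, Igf1r would stand above Igf2r in WT samples 2 and 4. It would stand below Igf2r in the other samples. Igf1 and Igf2 changed places in the uncorrected levels, but not in every library with the GC correction or with Gm49394 added.

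Summed over the 6 binding proteins, the level was 451, 545 and 521 CPM per kb in WT and 231, 268 and 230 CPM per kb in Mmp13-/-. The sum in WT was 2.08 times that in Mmp13-/-, with no overlap of the genotypes (exact permutation p = 0.1). With GC-corrected levels it was 362, 407 and 391 CPM per kb in WT and 284, 330 and 352 CPM per kb in Mmp13-/-, a ratio of 1.2 (exact permutation p = 0.1). For all 10 genes the uncorrected means were 562 ± 48.1 and 288 ± 27.4 CPM per kb.

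**Figure D4:**
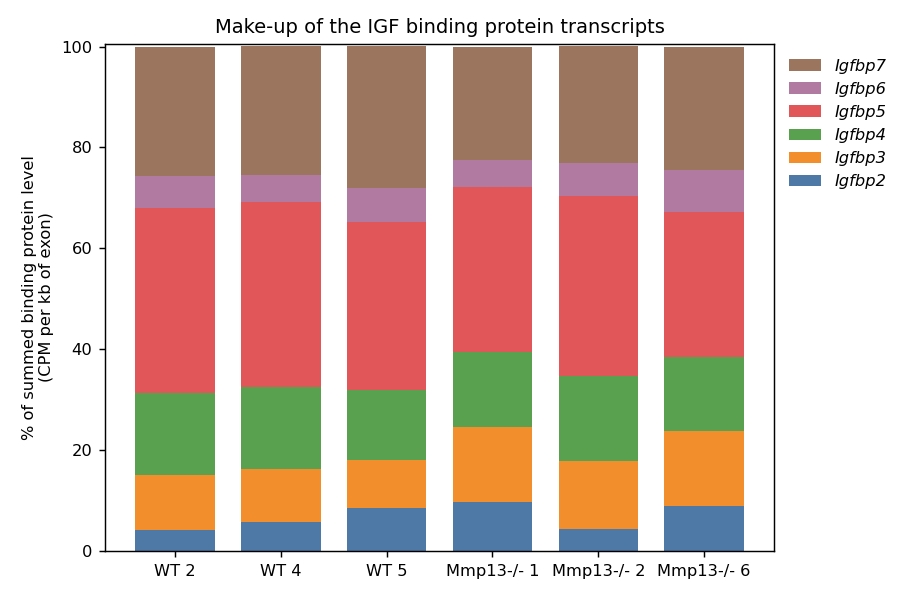
Stacked bars give each binding protein as a percent of the summed binding protein level (CPM per kb of exon) in each of the 6 samples. Igfbp5 is the largest share in every sample and Igfbp7 the next, and the share of Igfbp3 is larger in each Mmp13-/- sample than in any WT sample.

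Shares within the summed binding proteins do not depend on library scaling. Igfbp5 made up 36.6, 36.7 and 33.3% in WT and 32.7, 35.6 and 28.7% in Mmp13-/-, with overlapping genotypes (exact permutation p = 0.2). Igfbp3 made up 10.8, 10.6 and 9.51% in WT and 14.9, 13.4 and 15.0% in Mmp13-/-. Its share was 4.13 percentage points higher in Mmp13-/- (exact permutation p = 0.1), the only share whose separation also held, at 2.63 points, with GC-corrected levels. Igfbp7 made up 25.7, 25.5 and 28.0% in WT and 22.5, 23.1 and 24.5% in Mmp13-/-. Its share dropped by 3.02 points (exact permutation p = 0.1), but with GC-corrected levels it differed by 2.47 points in the other direction. With those levels the share of Igfbp5 was 39.9 ± 2.16% in WT and 28.4 ± 2.72% in Mmp13-/-, which did not overlap (exact permutation p = 0.1). Uncorrected shares of Igfbp2, Igfbp4 and Igfbp6 differed by 1.49, -0.042 and 0.639 points, and their genotypes overlapped. With GC-corrected levels the share of Igfbp6 did not overlap, at 5.32 ± 0.769% in WT and 7.76 ± 1.47% in Mmp13-/- (exact permutation p = 0.1). The neighbours Igfbp5 and Igfbp2 stood in an uncorrected ratio of 3.95 to 8.68 in WT and 3.25 to 8.23 in Mmp13-/-, which overlapped (exact permutation p = 0.5).

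The genes nearest in profile to the largest rise and the largest fall were found by the root mean square difference of log2 CPM from the WT mean, over 6 samples and among 10784 genes. For Igf1 these were Ostc, a subunit of the oligosaccharyltransferase, at 0.08, Mme, the membrane peptidase neprilysin, at 0.09, and Itm2a, a membrane protein of chondrogenic and muscle precursors, at 0.12. For Igfbp7 they were the noncoding RNA Miat at 0.04, the tyrosine sulfotransferase gene Tpst2 at 0.04, and Shf, which encodes an SH2 adaptor, at 0.05. Log2 fold changes were 1.93 to 2.01 for the former trio and -1.26 to -1.22 for the latter. Their nearness to Igf1 and Igfbp7 follows from how the genes were chosen.

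**Figure D5:**
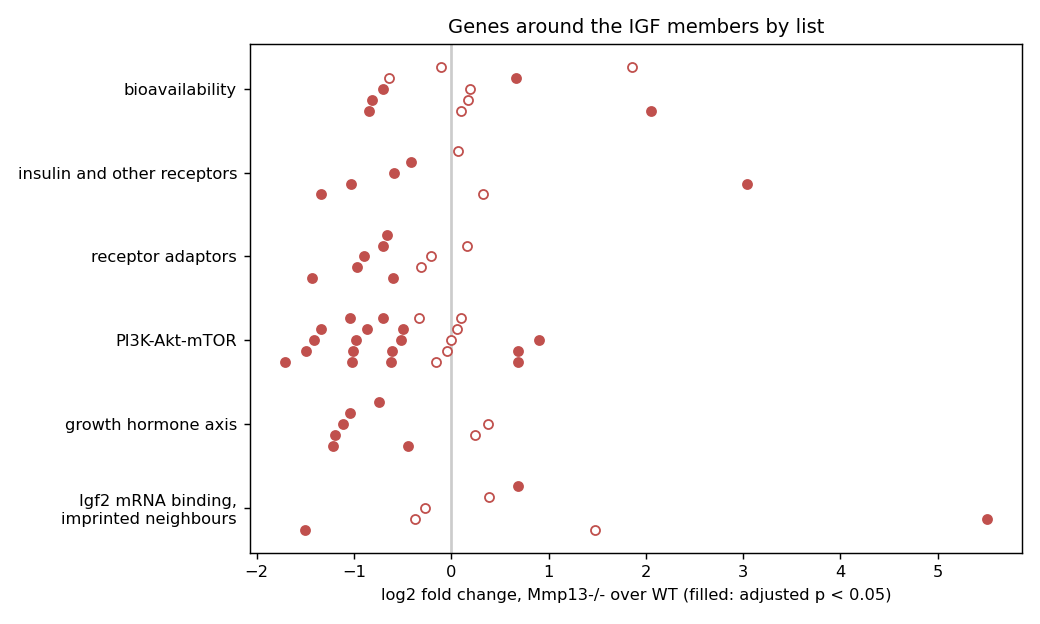
Log2 fold changes of Mmp13-/- over WT are plotted for the 65 tested genes of 6 lists around the IGF genes, with a point for each gene, filled where the edgeR adjusted p is under 0.05. Most filled points lie left of 0 in the lists of receptor adaptors, PI3K-Akt-mTOR and growth hormone axis, and Igf2bp1 lies farthest right.

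Genes that act around the IGF system were taken from 6 lists with 68 genes, of which 65 were tested. Of these 8 were higher, 34 lower and 23 did not pass, beside 27.3% and 24.3% of all genes tested. The median log2 fold change was -0.50. After the GC correction 11 were higher and 13 lower with a median of -0.07, and without sample 6 the counts were 9 and 32.

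Among proteins that set how much ligand is free, 2 of 11 tested genes were higher and 3 lower, with a median log2 fold change of 0.10. Adam28, a membrane protease that can cut IGFBP3, was at 0.414, 0.257 and 1.40 CPM in WT and 1.75, 1.71 and 5.16 CPM in Mmp13-/-. Its highest WT sample lay close under the 2 lower Mmp13-/- samples. Adam28 rose by 2.05 on the log2 scale (edgeR adjusted p = 0.0238), a call that was lost without sample 6 (log2 fold change 1.35, adjusted p = 0.0936), without WT sample 2 or 4, after background subtraction (adjusted p = 0.0743) and after the GC correction (adjusted p = 0.155). Igfbp1, a binding protein of liver, had 0 counts in every WT library and 4.26, 6.33 and 11.3 counts in Mmp13-/-, 1.55 to 2.36 times the background rate, and was too low to be tested. Igfbpl1, a related secreted protein, stood 1.86 higher on the log2 scale without passing the test (edgeR adjusted p = 0.136), with 28, 4 and 0 counts in WT samples, and it passed without WT sample 2.

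Of 7 receptors of the insulin family and others known to bind IGFs or their binding proteins, 1 was higher and 4 lower (median -0.41). Insr, the insulin receptor and closest relative of Igf1r, was at 131, 143 and 135 CPM in WT and 107, 111 and 89.5 CPM in Mmp13-/-. Every Mmp13-/- sample was below WT, and Insr fell by 0.41 on the log2 scale (edgeR adjusted p = 0.0414). That call was lost without WT sample 2, 4 or 5 or Mmp13-/- sample 1 and after background subtraction (log2 fold change -0.27, adjusted p = 0.0748). It held with the GC correction (log2 fold change -0.31, adjusted p = 0.0383). Insrr, an orphan receptor of the same family that responds to alkaline pH, had 4 to 8.89 counts in WT and 29.4 to 60.5 in Mmp13-/-, a log2 rise of 3.04 (edgeR adjusted p = 0.00384) at 2.21 to 3.43 times the background rate. Lrp1, a scavenger receptor that also binds IGFBP3, fell by 1.03 (edgeR adjusted p = 0.00246), and Itgb4, an integrin chain of epithelia, by 1.34 (edgeR adjusted p = 0.000313). Their GC-corrected log2 fold changes were 0.01 and -0.15, and neither was called.

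In the receptor adaptors, which couple the activated receptor to kinases, 6 of 9 tested genes were lower and 3 did not pass (median -0.66). Sh2b1, an adaptor of insulin and growth hormone receptors, was at 57.2 to 61.3 CPM in WT and 16.2 to 25.3 CPM in Mmp13-/-. It had the only change over 2-fold of that list and fell by 1.43 on the log2 scale (edgeR adjusted p = 0.000218). Corrected for GC content, its log2 fold change was -0.28 (adjusted p = 0.1).

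The PI3K-Akt-mTOR list, the kinase cascade below the receptor and its brakes, had 3 of 23 genes higher and 14 lower (median -0.61). Foxo4, a transcription factor that Akt keeps out of the nucleus, was at 76.2, 89.6 and 76.7 CPM in WT and 28.0, 27.8 and 17.9 CPM in Mmp13-/-. It fell by 1.71 on the log2 scale (edgeR adjusted p = 0.000144), and by 0.89 after the GC correction (adjusted p = 0.00107). Akt2, the Akt kinase of insulin action, was at 255, 259 and 248 CPM in WT and 99.2, 103 and 69.7 CPM in Mmp13-/-. Foxo4 and Akt2 were both without overlap and lowest in sample 6, and Akt2 fell by 1.49 (edgeR adjusted p = 0.000213) or 0.66 with GC correction (adjusted p = 0.00282). Pik3r2, a regulatory subunit of PI3K, fell by 1.41 (edgeR adjusted p = 8.86e-05) and Gsk3a, a glycogen synthase kinase, by 1.34 (edgeR adjusted p = 0.000199), with GC-corrected log2 fold changes of -0.20 and -0.19 that were not called.

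In the growth hormone axis, which drives Igf1 transcription, 6 of 8 genes were lower and 2 did not pass (median -0.89), and with the GC correction 1 was lower. Ghr, the growth hormone receptor, was at 69.7, 51.9 and 49.8 CPM in WT and 75.2, 85.3 and 61.9 CPM in Mmp13-/-. The genotypes overlapped through WT sample 2, and the log2 fold change of 0.38 (95% interval -0.02 to 0.78) did not pass (edgeR adjusted p = 0.105), though it passed at 0.49 without sample 6 (adjusted p = 0.0297) and at 0.51 after background subtraction (adjusted p = 0.0217). After the GC correction the direction of Ghr turned, to -0.15 (adjusted p = 0.36). Stat5a and Stat5b, the transcription factors below the receptor, fell by 1.19 (edgeR adjusted p = 0.000284) and 1.22 (edgeR adjusted p = 0.00123). Stat5b was at 137 to 149 CPM in WT and 41.9 to 77.0 CPM in Mmp13-/-, and it alone of the list was called with GC correction, at a log2 fold change of -0.62 (adjusted p = 0.0121). The feedback inhibitors Socs1 and Socs3 fell by 1.11 (edgeR adjusted p = 0.00337) and 1.04 (edgeR adjusted p = 0.00106), with GC-corrected log2 fold changes of -0.01 and 0.07.

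Of 7 tested genes for Igf2 mRNA binding and the imprinted loci, 2 were higher and 1 was lower (median 0.39). H19, the maternally expressed noncoding neighbour of Igf2, was at 136, 192 and 259 CPM in WT and 82.9, 61.5 and 62.1 CPM in Mmp13-/-. WT samples spread widely in the reverse order of Igf2, with sample 2 lowest for H19 and highest for Igf2, and all lay above Mmp13-/-. H19 fell by 1.5 on the log2 scale (edgeR adjusted p = 0.000771), and by 0.61 after the GC correction (adjusted p = 0.046). Igf2bp1, an oncofetal protein that binds Igf2 mRNA and that the study had already singled out in these samples, had 2, 0 and 2 counts in WT libraries and 37.5, 33.5 and 84.9 in Mmp13-/-. With background left in, that was at least 22.1-fold higher against a floor of 3 counts per library (edgeR adjusted p = 0.000901). Without sample 6 it was at least 10.6-fold (adjusted p = 0.000911). The Mmp13-/- counts were 1.83 to 2.58 times the background rate, so both folds would be smaller with background taken off.

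Markers of other cells in the pulp also differed between the genotypes. Their calls stand beside 27.3% of all genes tested called higher and 24.3% lower. With the GC correction these shares were 26.7% and 9.5%. Summed odontoblast markers were at 37533 to 45393 CPM in WT and 11310 to 14221 CPM in Mmp13-/- (4 of 8 lower, 2 higher), and endothelial markers at 346 to 387 and 217 to 305 CPM (5 of 8 lower, 1 higher). Skeletal muscle markers, which do not belong to pulp, were at 51408 to 60936 and 9075 to 22047 CPM, with 7 of 8 lower. Mural cell markers were at 668 to 734 and 495 to 642 CPM, with 3 of 6 lower and 2 higher. After the GC correction 1 odontoblast marker was lower and 3 were higher, the endothelial list had 2 and the mural list 3 higher, with medians of 0.24, 0.12 and 0.42 on the log2 scale in place of -0.45, -0.55 and -0.27, and 6 skeletal muscle markers were still lower.

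Markers that moved the other way were those of blood and bone-resorbing cells. Macrophage markers were at 123 to 126 CPM in WT and 183 to 228 CPM in Mmp13-/- (3 of 8 higher, beside 27.3% of all genes tested), neutrophil markers at 137 to 284 and 711 to 1741 CPM (8 of 8 higher), and B cell markers at 45.6 to 50.1 and 69.8 to 94.6 CPM (7 of 8 higher). Erythroid markers were at 475 to 766 and 1279 to 2455 CPM (5 of 6 higher), and osteoclast markers at 72.7 to 77.6 and 255 to 468 CPM (6 of 6 higher). Schwann cell (1 of 6 lower), epithelial (2 of 8 lower) and adipocyte (2 of 4 higher) marker sums overlapped between genotypes, at 79.0 to 280 against 83.1 to 103 CPM, 4770 to 6084 against 4640 to 6024 CPM, and 21.6 to 34.1 against 32.5 to 44.5 CPM. After the GC correction 7 macrophage, 8 neutrophil, 7 B cell, 6 erythroid and 6 osteoclast markers were higher, beside 26.7% of all genes tested. None of the markers was at 0 in all libraries. The part of these cells in the IGF changes was not tested.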

How the data were processed

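Pulp RNA of 3 WT and 3 Mmp13-/- mice was sequenced in pairs of reads on an Illumina HiSeq. The deposited table holds estimated counts per gene, made by the authors in Strand NGS 4.0 from aligned reads, with fractions where reads were shared, and log2 values that the authors normalized with DESeq at a threshold of 1 and centred on each gene's median. Build mm10 and DESeq are named in the submitters' processing notes. The aligner and annotation release are not given in the sources used here. Libraries were made without a stated strand setting, so genes that overlap on opposite strands cannot be told apart.

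Rounding to whole numbers came first, and the test was run with edgeR 4.0.16 in R 4.3.3 (TMM factors, filterByExpr by genotype, quasi-likelihood test, Benjamini-Hochberg adjustment over 24534 genes). A gene was called at an adjusted p under 0.05, and changes over 2-fold were counted as well. Samples were grouped by their labelled genotype. Genes were matched to GENCODE M21 on GRCm38 by identifier (99.8%), which gave exon length, GC content and overlaps, and length is the union of exons. Shares and ratios were compared with two-sided exact permutation tests. Members and lists were chosen with earlier results of these data known, so no list was tested as a set. The genes named were the 10 IGF genes, up to 4 called changes over 2-fold per list by adjusted p, and Igfbp1, Igfbpl1, Insr, Ghr, H19 and Airn. Jak2, Igf1os and Igf2os were named after their values were seen.

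Alternatives were other factors and filters, DESeq2 1.42.0, limma 3.58.1 on the deposited log2 values, the study's gene-by-gene test with Storey's q, each library left out, a loess GC correction (span 0.4, genes with a mean log2 CPM above 3), and subtraction of the background rate per exon length. GC-corrected shares, ratios and sums, counts of Igf2 and Gm49394 added, and factors without the 10 most abundant genes of each sample were chosen after seeing the data. The fits were tested on simulated data with 200 changed genes. That simulation held no GC trend, no difference in background and far fewer changed genes than were called here. It therefore cannot show how the fits handle these. The spread between the 3 samples of a genotype, not counting error, sets the precision.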

Additional observations from a re-analysis of the deposited data

How the results depend on the processing

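The rise of Igf1 was called in every alternative run, where 17% (limma) to 33.3% (upper-quartile factors) of all genes tested were called higher. The 7 falls were called again with RLE or upper-quartile factors, either filter setting, DESeq2, the study's procedure, background subtraction and each library left out, and 5 of them with total counts or limma. The share of all genes called lower was 12.5% with total counts and 7.79% with limma. In the other runs just named it was 11.9% (DESeq2) to 25.7% (at least 10 counts in every sample). The DESeq2 share is over 49715 genes with a fold change, whether or not they had an adjusted p. The GC correction, alone and with background subtraction, left 3 genes called, 2 of them lower, and 0 lower over 2-fold. Of all genes tested, 9.5% and 11.6% were called lower there. Under these settings the log2 fold change turned to 0.17 and 0.19 for Igf2r, 0.45 and 0.47 for Igfbp2, 0.05 and 0.07 for Igfbp3, and 0.30 and 0.31 for Igfbp6. Upper-quartile factors left 1 gene lower over 2-fold. DESeq2 and factors without the 10 most abundant genes called 9 genes lower, beside 11.9% of those 49715 genes and 27.3% of all genes tested. The study's procedure, as run here, called 8 lower, with Igf2r, beside 16.3% of genes lower and 30.9% higher. That is a larger share of genes than the paper reports at the same q. The calls of this run are therefore not those of the study. The cause of these shifts was not tested. Over all genes the median was 0.32 on the log2 scale with upper-quartile factors, 0.21 with total counts, 0.33 with the GC correction, 0.65 with limma and the study's procedure, 1.11 with DESeq2 and 1.30 without a filter on low counts, the last 4 over many more genes (48613 to 49715).

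For the pathway lists, 27 genes were called with total counts (17 lower), 24 with the GC correction (13 lower), 22 with GC correction and background subtraction (13 lower), and 25 with limma (3 higher, 22 lower). Of all genes tested 12.5%, 9.5%, 11.6% and 7.79% were called lower in those fits, and 28.1%, 26.7%, 21.6% and 17% higher. With GC-corrected levels the shares differed by 2.63 points for Igfbp3, -11.5 for Igfbp5, 2.44 for Igfbp6 and 2.47 for Igfbp7. Ratios then differed on the log2 scale by 1.27 (Igf1 to Igf2), -0.56 (Igf1r to Igf2r), 1.39 (Igf1 to Igf1r) and -1.23 (Igfbp5 to Igfbp2). The summed binding proteins were 1.2 times as high in WT as in Mmp13-/-. With the longest transcript as length and no correction, the 10 genes summed to 616 CPM per kb in WT and 323 in Mmp13-/-.

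With single libraries left out, 7 to 8 IGF genes were lower and 3 to 5 of these over 2-fold, and 28 to 34 pathway genes were lower and 7 to 9 higher. Beside them, 18.9 to 23.8% of all genes tested were called lower and 21.6 to 27.5% higher. Arms of 2 libraries in those fits borrow their spread from the rest of the samples. The share of Igfbp5 differed by -4.84 to -1.37 points, the latter without Mmp13-/- sample 6, that of Igfbp2 by 0.471 to 3.13, that of Igfbp4 by -0.802 to 0.373 and that of Igfbp6 by -0.142 to 1.31. Among the pathway genes, Jak2 and Ghr were called higher without sample 6 (edgeR adjusted p = 0.0174 and 0.0297) and with background subtraction (adjusted p = 0.0413 and 0.0217). With the GC correction neither was called, at log2 fold changes of 0.04 and -0.15.

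No paired analysis was possible because the labels name no pairs of samples across the genotypes. With 3 samples in each genotype an exact test cannot give a p below 0.1, and groups of 3 are too small for a check on outlying values.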
